A study of Homo sapiens with 15 samples.

Results

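Human prostate cancer cells of the C42B line were compared after 6 h with enzalutamide plus ABC294640 and after 6 h with the solvent DMSO. The comparison takes 3 arrays of the combination (10 µM enzalutamide and 15 µM ABC294640) and 3 arrays of DMSO (0.125%), 6 of the 15 arrays in the study. Its members are all 17687 genes with a probe set that carries 1 gene symbol, out of 21448 probe sets. The arrays were chosen by their labels and not by a measured value. The other 9 arrays are 2 of 10 µM enzalutamide, 3 of 10 µM enzalutamide with 15 µM PF-543, 1 of 15 µM ABC294640 alone and 3 of 15 µM PF-543 alone, all at 6 h. No DMSO percentage is labelled for the treated arrays. All groups are cultures of 1 cell line in medium with serum. The labels do not say whether the replicates of a group were separate cultures, so p-values measure only the spread between these arrays, which may be technical.

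C42B is a castration-resistant derivative of the LNCaP line, grown here with serum and with no labelled removal of its androgens. Androgens bind the androgen receptor, a nuclear receptor that binds DNA and switches on prostate genes such as the kallikreins. Enzalutamide is an antagonist that competes with androgen for this receptor. ABC294640, also called opaganib, inhibits sphingosine kinase 2, and PF-543 inhibits sphingosine kinase 1; these enzymes make the signalling lipid sphingosine 1-phosphate. A further programme that prostate cells switch on under stress is the integrated stress response, in which the transcription factor ATF4 raises genes of amino acid synthesis and transport. The receptor's own gene and the gene of sphingosine kinase 2 are not analysed here.

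Promoters are shown for the 3 genes with the largest differences in each of the 2 gene groups described below, the androgen-induced genes and the ATF4 targets, among members for which the table of promoters has an entry. The sequences are RefSeq's (GRCh38.p14), run 5′ to 3′ on the gene's strand, and hold 250 bases before and 50 after the start of the gene. CHAC1 (chr15:40953221-40953520, plus strand), DDIT4 (chr10:72273674-72273973, plus strand) and SESN2 (chr1:28259268-28259567, plus strand) rose. C1orf116 (chr1:207032707-207033006, minus strand), RHOU (chr1:228644397-228644696, plus strand) and KLF5 (chr13:73054726-73055025, plus strand) fell. Capitals mark a match to TGATGNAA, the composite site that ATF4 binds, in the ATF4 targets, and a match to TGTTCT, an androgen response half-site, in the androgen-induced genes.
CHAC1: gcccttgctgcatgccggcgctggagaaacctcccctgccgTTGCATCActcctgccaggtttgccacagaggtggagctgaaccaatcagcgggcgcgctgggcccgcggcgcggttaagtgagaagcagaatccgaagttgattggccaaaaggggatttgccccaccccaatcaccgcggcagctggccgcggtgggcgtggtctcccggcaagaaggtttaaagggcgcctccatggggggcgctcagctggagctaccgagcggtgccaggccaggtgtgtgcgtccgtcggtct
DDIT4: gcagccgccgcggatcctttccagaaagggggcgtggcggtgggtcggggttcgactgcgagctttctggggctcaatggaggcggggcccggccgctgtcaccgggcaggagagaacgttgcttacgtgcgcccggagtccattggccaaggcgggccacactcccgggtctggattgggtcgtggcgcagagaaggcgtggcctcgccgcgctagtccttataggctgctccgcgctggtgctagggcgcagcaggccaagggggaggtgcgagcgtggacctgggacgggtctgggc
SESN2: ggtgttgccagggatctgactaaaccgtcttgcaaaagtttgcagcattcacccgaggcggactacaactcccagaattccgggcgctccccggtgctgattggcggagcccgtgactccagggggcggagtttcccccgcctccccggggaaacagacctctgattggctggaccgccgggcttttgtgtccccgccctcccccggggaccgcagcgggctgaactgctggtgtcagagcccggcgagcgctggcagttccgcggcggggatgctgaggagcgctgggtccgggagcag
C1orf116: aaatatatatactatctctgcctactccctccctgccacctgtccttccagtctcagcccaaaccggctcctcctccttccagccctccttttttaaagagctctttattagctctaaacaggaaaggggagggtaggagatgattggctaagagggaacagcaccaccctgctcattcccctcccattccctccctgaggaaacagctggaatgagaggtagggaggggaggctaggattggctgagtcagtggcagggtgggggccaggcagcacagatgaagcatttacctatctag
RHOU: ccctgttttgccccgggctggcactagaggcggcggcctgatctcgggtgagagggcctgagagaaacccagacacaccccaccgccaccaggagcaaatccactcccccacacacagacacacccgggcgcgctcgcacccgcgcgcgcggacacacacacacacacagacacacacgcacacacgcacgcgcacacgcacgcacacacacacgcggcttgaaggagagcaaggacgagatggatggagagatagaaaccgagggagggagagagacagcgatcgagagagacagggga
KLF5: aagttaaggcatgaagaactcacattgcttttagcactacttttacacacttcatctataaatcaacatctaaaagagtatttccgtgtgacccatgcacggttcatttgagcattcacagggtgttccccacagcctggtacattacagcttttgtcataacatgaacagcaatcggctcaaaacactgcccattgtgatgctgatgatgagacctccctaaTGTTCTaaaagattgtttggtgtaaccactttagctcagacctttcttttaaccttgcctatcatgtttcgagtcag
The CHAC1 match lies on the minus strand, 209 bases before the start, and the KLF5 match on the plus strand, 27 bases before it. The DDIT4 and SESN2 windows held no TGATGNAA and the C1orf116 and RHOU windows no TGTTCT on either strand, which says only that these letters are not in these windows. Of the called list members with a promoter in the table, 2 of 10 androgen-induced genes (KLF5 and KLK3) held TGTTCT and 1 of 7 ATF4 targets (CHAC1) held TGATGNAA. The half-site TGTTCT stood in 14.3% of the 49 promoters available for the genes that fell and in 11.4% of the 14250 available for the genes tested. TGATGNAA stood in 8.51% of the 47 promoters of genes that rose, in 8.16% of the 49 of genes that fell and in 2.62% of the 14250. Both strands were searched for each motif, neither motif contains the other, and a match is a description of letters, not of binding.

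Values are log2 probe set levels after RMA, which corrects background and brings arrays to a common distribution, so a change common to most genes is hidden. Array medians lay between 6.71 and 6.76. The DMSO arrays stood apart from every treated group: on the leading principal component, with 15.3% of the variance, the combination arrays lay between -7.645 and -3.873, the other treated arrays between -11.6 and 0.03 and the DMSO arrays between 18.9 and 24.8. Results against DMSO are therefore given also with values from comparisons that hold no DMSO array. These set the combination against the single ABC294640 array, or enzalutamide plus PF-543 against PF-543, whose difference shares no array with the main one. The spread of each gene was still estimated from all 15 arrays, those of DMSO and the combination included. Calls in these comparisons are therefore not independent of calls against DMSO. The luminal markers (keratins, kallikreins and others, 9 of 11 measured) averaged 13.556 to 13.584 on the combination arrays and 13.689 to 13.700 on the DMSO arrays. The 4 basal markers averaged 4.332 to 4.400 on the combination arrays and 4.238 to 4.302 on the DMSO arrays. The 5 fibroblast markers averaged 6.09 to 6.24 on the combination arrays and 6.35 to 6.39 on the DMSO arrays, and the 4 leukocyte markers 5.60 to 5.82 on the combination arrays and 5.84 to 6.15 on the DMSO arrays. In these 4 lists the array averages of the 2 groups did not overlap, with basal markers higher and the others lower with the combination. Of the 9 luminal markers 5 had a value above 0 and 4 below, with a median of 0.01. HOXB13 rose, and KLK3, KLK2 and TMPRSS2, which are also on the androgen-induced list, fell. Neuroendocrine and endothelial markers overlapped, with 4.43 to 4.95 on the combination arrays and 4.502 to 4.885 on the DMSO arrays. The arrays give no detection calls here, so no marker could be called absent, and the part of other cells in the results was not tested.

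After the combination, 60 genes were higher and 64 lower than with DMSO (limma, Benjamini-Hochberg adjusted p under 0.05). The 124 genes are 0.701% of those tested, 0.339% for the rises and 0.362% for the falls. The falls were led by genes that androgen induces, among them C1orf116, RHOU, ZBTB16 and KLF5, and the rises by the ATF4 targets CHAC1 and DDIT4. Rises spanned 0.40 to 1.56 on the log2 scale and falls 0.49 to 2.36. At least 2-fold were 3 of the rises (CHAC1, DDIT4 and PLEKHA7) and 16 of the falls. The median difference over all genes was -0.01. The 3 combination arrays and the 3 DMSO arrays did not overlap for any of the 124 genes, a separation that 19.2% of all genes showed. An unadjusted p under 0.05 was reached by 2836 genes, where 884 would do so by the threshold alone. Leaving out any 1 of the 6 arrays left 49 to 77 genes past the threshold, and a fit on these 6 arrays alone left 23, so the size of the list depends on the arrays and on the spread borrowed from the other groups.

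Genes that androgen induces in prostate cells were the clearest group to fall. Of 35 measured members of the list, 12 fell and 0 rose, against 0.362% of all genes that fell, and the median difference was -0.44. The members were C1orf116, RHOU, ZBTB16, KLF5, SLC45A3, PMEPA1, MAF, OTULINL, MAK, TMPRSS2, KLK2 and KLK3. The list was drawn up with results of these arrays known, so its direction is not independent evidence. Without 8 members that those results had named, 6 of 27 fell (RHOU, SLC45A3, OTULINL, TMPRSS2, KLK2 and KLK3), with a median of -0.28.

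C1orf116, which encodes the specifically androgen-regulated gene product, was at 10.48, 10.34 and 10.21 on the combination arrays, against 12.58, 12.76 and 12.78 on the DMSO arrays. All 3 combination arrays lay far below the lowest DMSO array, and the mean fell by 2.36 on the log2 scale (SE 0.11, 5.15-fold, adjusted p = 2.33e-07). RHOU, a small GTPase of the cytoskeleton, was at 9.80, 9.33 and 9.67 with the combination, against 11.71, 11.66 and 11.55 with DMSO. Its mean fell by 2.04 (SE 0.12, 4.11-fold, adjusted p = 3.75e-06), again with no overlap. ZBTB16, the zinc finger repressor PLZF, was at 7.31, 7.38 and 7.66 with the combination, against 9.34, 9.41 and 9.46 with DMSO. That difference was -1.95 (SE 0.16, adjusted p = 5.77e-05). KLF5, a Krüppel-like transcription factor of epithelial growth, was at 6.95, 6.30 and 6.79 with the combination, against 8.80, 8.52 and 8.54 with DMSO, a difference of -1.94 (SE 0.17, adjusted p = 0.000136). The plot of the levels on all 15 arrays shows these genes low on every array that had enzalutamide and high on all others.

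**Figure D1:**
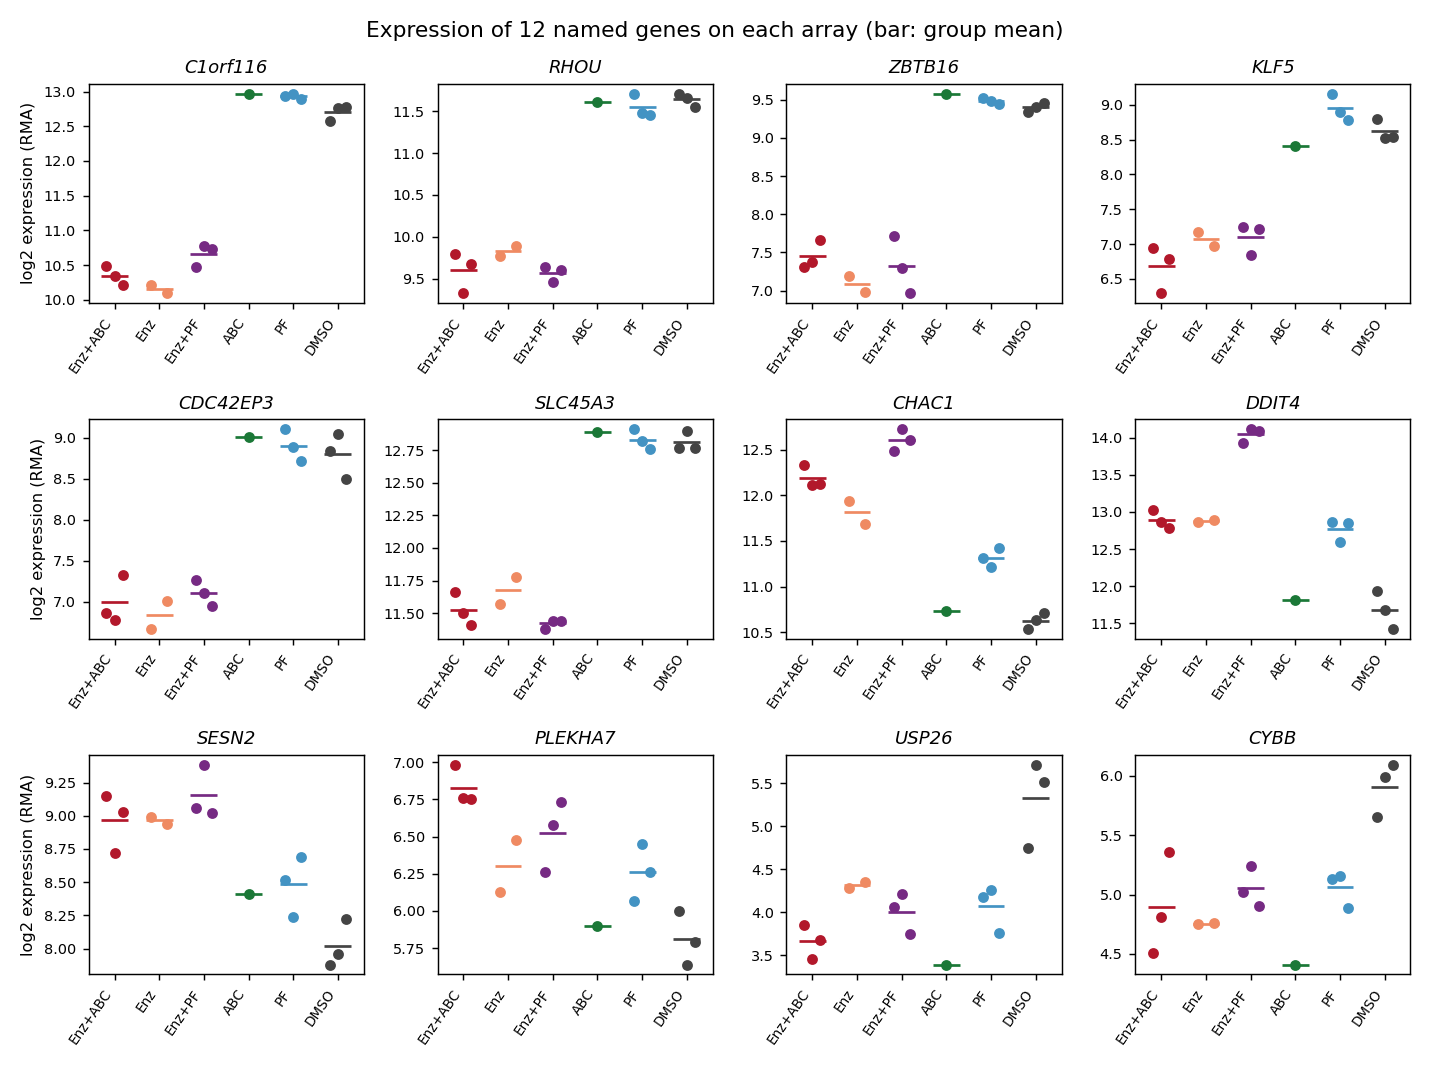
Log2 RMA level (vertical axes) of 12 genes on each of the 15 arrays (points), by group, with group means as bars (Enz, enzalutamide; ABC, ABC294640; PF, PF-543). C1orf116, RHOU, ZBTB16 and KLF5 sit low on the combination, enzalutamide and enzalutamide plus PF-543 arrays, with C1orf116 between 10.10 and 10.78 there and between 12.58 and 12.97 on the ABC294640, PF-543 and DMSO arrays. CHAC1 and DDIT4 sit highest with enzalutamide plus PF-543.

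Secreted and membrane products of the luminal cell fell less on the log2 scale. SLC45A3, the prostate membrane transporter prostein, was at 11.66, 11.50 and 11.41 with the combination, against 12.77, 12.90 and 12.77 with DMSO, a difference of -1.29 (adjusted p = 2.33e-05). TMPRSS2, a membrane serine protease whose promoter drives oncogenic fusions in prostate cancer, was at 9.13, 9.20 and 9.26 with the combination, against 10.05, 9.95 and 9.98 with DMSO (-0.80, adjusted p = 0.00191). The kallikreins moved least of the 12. KLK3, prostate-specific antigen, was at 15.82, 15.66 and 15.67 with the combination, against 16.18, 16.22 and 16.23 with DMSO (-0.49, adjusted p = 0.0131). KLK2 differed by -0.63 (adjusted p = 0.0307). Both transcripts lie near the top of the scale, and saturation was not tested.

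Regulators on the list fell between these extremes. PMEPA1, a membrane adaptor that restrains TGF-beta signalling, was at 9.03, 8.74 and 9.01 with the combination, against 10.06, 10.32 and 10.17 with DMSO (-1.26, SE 0.15, adjusted p = 0.00226). The transcription factor MAF was at 7.10, 6.66 and 7.31 with the combination, against 8.18, 7.78 and 8.18 with DMSO (-1.02, adjusted p = 0.0369). The kinase MAK differed by -0.94 (adjusted p = 0.0174) and OTULINL by -0.97 (adjusted p = 0.00659). SNAI2, a repressor of epithelial genes, had -1.43 and did not pass (adjusted p = 0.0545), with combination arrays at 5.73, 4.81 and 4.90 and DMSO arrays at 6.29, 6.74 and 6.69.

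The androgen-induced genes also fell where no DMSO array was compared. Against the single ABC294640 array, 8 of the 35 fell, where 0.0735% of all genes fell, and the list's median was -0.35. C1orf116 differed there by -2.63 (95% interval -2.95 to -2.30, adjusted p = 4.66e-06), RHOU by -2.01 and ZBTB16 by -2.13. In enzalutamide plus PF-543 against PF-543, where 0.232% of all genes fell, 12 of the 35 fell with a median of -0.37, with SNAI2 and ELL2 in place of KLK3 and MAK. C1orf116 differed there by -2.27, RHOU by -1.98 and ZBTB16 by -2.16. KLK3 and MAK passed in neither of these comparisons; their differences were -0.32 and -0.92 against ABC294640, and -0.34 and -0.57 in enzalutamide plus PF-543 against PF-543.

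Partners of the receptor gave 2 rises. Of 10 measured coregulators and pioneer factors of the androgen receptor, whose median was -0.02, GATA2 and HOXB13, transcription factors that bind with the receptor at prostate enhancers, rose. HOXB13 was at 13.01, 13.28 and 13.23 with the combination, against 12.63, 12.60 and 12.50 with DMSO (0.60, adjusted p = 0.0108), and GATA2 differed by 0.59 (adjusted p = 0.0173). MYC, a growth regulator listed here among androgen-repressed genes, was at 14.54, 14.55 and 14.66 with the combination, against 13.99, 14.07 and 13.98 with DMSO (0.57, adjusted p = 0.00659). It was the 1 called member of 18 measured androgen-repressed genes, whose median was 0.05, and of 13 genes of MYC and ribosome biogenesis, whose median was 0.24. None of the 3 genes passed without DMSO arrays: against ABC294640 they differed by 0.33 (HOXB13), 0.21 (GATA2) and 0.27 (MYC), and in enzalutamide plus PF-543 against PF-543 by 0.36, 0.17 and 0.12 in that order.

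**Figure D2:**
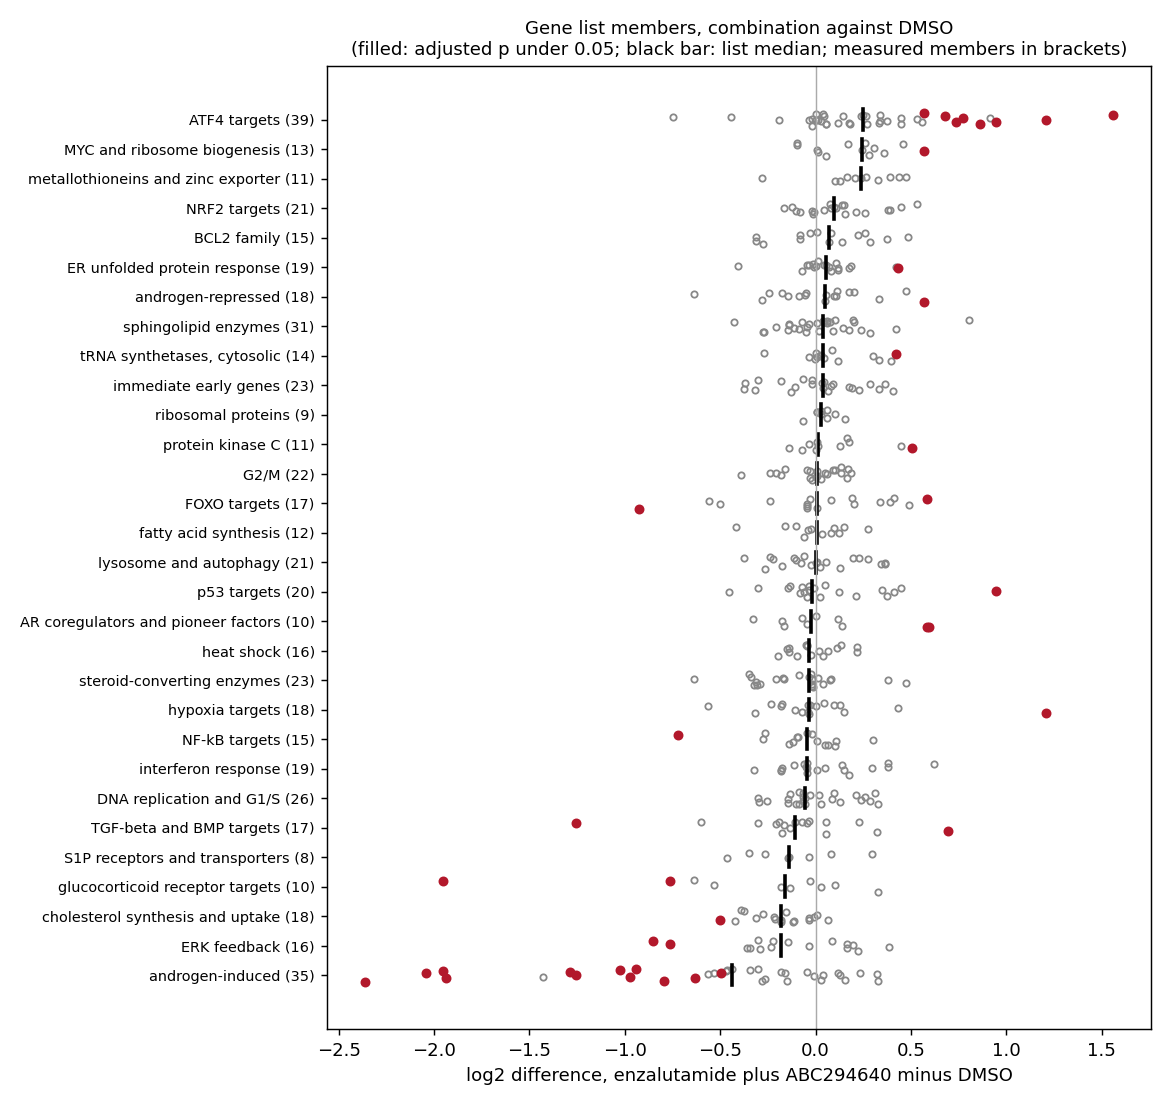
Log2 difference of each measured member (points) of gene lists, combination minus DMSO on the horizontal axis, with filled points for members past the adjusted p threshold. The androgen-induced list holds 12 filled points, all below 0, and the ATF4 target list 8, all above 0.

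The ATF4 targets were the largest group to rise. Of 39 measured members, 8 rose and 0 fell, against 0.339% of all genes that rose, and the median was 0.25. Without 1 of the 6 arrays 4 to 6 members of the list rose, and in a fit on the 6 arrays alone 2 rose. Whether these were among the 8 was not counted. The 8 were CHAC1, DDIT4, SESN2, PCK2, TRIB3, SLC6A9, PSPH and STC2. Several of these too had been named in results of these arrays: without 8 such members, 2 of 31 rose (TRIB3 and PCK2) and the median was 0.18. The factor's partner DDIT3 (CHOP) had 0.91 and did not pass (adjusted p = 0.0535).

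CHAC1, which degrades glutathione, was at 12.33, 12.11 and 12.12 with the combination, against 10.54, 10.63 and 10.71 with DMSO. It rose by 1.56 (SE 0.11, 2.95-fold, adjusted p = 1.31e-05) with no overlap. DDIT4, an inhibitor of mTORC1 signalling that also answers to hypoxia, was at 13.02, 12.86 and 12.79 with the combination, against 11.94, 11.68 and 11.43 with DMSO (1.21, SE 0.13, 2.31-fold, adjusted p = 0.000794). These were the only targets to change at least 2-fold. SESN2, a leucine sensor and p53 target, was at 9.15, 8.72 and 9.03 with the combination, against 7.88, 7.96 and 8.22 with DMSO (0.95, adjusted p = 0.0130). TRIB3, a pseudokinase, was at 10.23, 9.81 and 9.74 with the combination, against 8.96, 9.24 and 9.26 with DMSO (0.77, adjusted p = 0.0424).

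Metabolic members of the list rose as well. PCK2, the mitochondrial form of the enzyme that makes phosphoenolpyruvate, was at 8.58, 8.45 and 8.17 with the combination, against 7.40, 7.75 and 7.47 with DMSO (0.86, adjusted p = 0.0385). SLC6A9, a glycine transporter, differed by 0.74 (adjusted p = 0.00683), PSPH, the last enzyme of serine synthesis, by 0.68 (adjusted p = 0.00785) and the secreted glycoprotein STC2 by 0.57 (adjusted p = 0.0131). The asparagine synthetase ASNS, a standard readout of ATF4, had 0.33 and did not pass (adjusted p = 0.0865). Of related lists, 1 of 14 tRNA synthetases rose (NARS1, 0.42, adjusted p = 0.0475) and 1 of 19 genes of the unfolded protein response rose (XBP1, 0.43, adjusted p = 0.0369). XBP1 had 0.34 against ABC294640 and 0.36 in enzalutamide plus PF-543 against PF-543, and NARS1 0.00 and 0.16, none past the threshold.

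Without DMSO arrays, the rise held for part of the ATF4 targets. Against the single ABC294640 array, CHAC1 rose by 1.46 (adjusted p = 0.00119) and was the 1 gene of all tested to rise, 0.00565%. DDIT4 had 1.08 there (95% interval 0.69 to 1.47, adjusted p = 0.0576), and PSPH and SESN2 0.17 and 0.56, neither past the threshold. In enzalutamide plus PF-543 against PF-543, 6 of the 39 rose where 0.0792% of all genes rose. Values there were 1.28 for CHAC1, 1.27 for DDIT4, 0.66 for SLC6A9, 0.57 for STC2, 1.64 for DDIT3 and 0.49 for ASNS, all past the threshold, and 0.66 for TRIB3, 0.67 for SESN2 and 0.54 for PCK2, which did not pass.

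The other falls split by whether they were seen without DMSO. Of the 64 falls, 24 also fell in enzalutamide plus PF-543 against PF-543 and 0 rose there; 12 fell against the ABC294640 array. The 24 had a median of -0.99 against DMSO and -0.88 in the comparison with no shared array, and the other 40 had -0.70 and -0.05. Of the 60 rises, 6 also rose in enzalutamide plus PF-543 against PF-543: CHAC1, DDIT4, SLC6A9, STC2, BAMBI and LMO4. Their medians were 0.72 and 0.61 on the 2 axes, and those of the other 54 were 0.59 and 0.15. In all, 30 of the 124 genes passed in at least 1 of these 2 comparisons without DMSO and 94 in neither. The groups of each comparison differ by enzalutamide and hold the same inhibitor. An effect of ABC294640 alone is therefore not measured in them. A missed threshold there does not show that a gene stayed level, since the median 95% interval reached 0.43 to each side against the single ABC294640 array and 0.31 against DMSO.

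**Figure D3:**
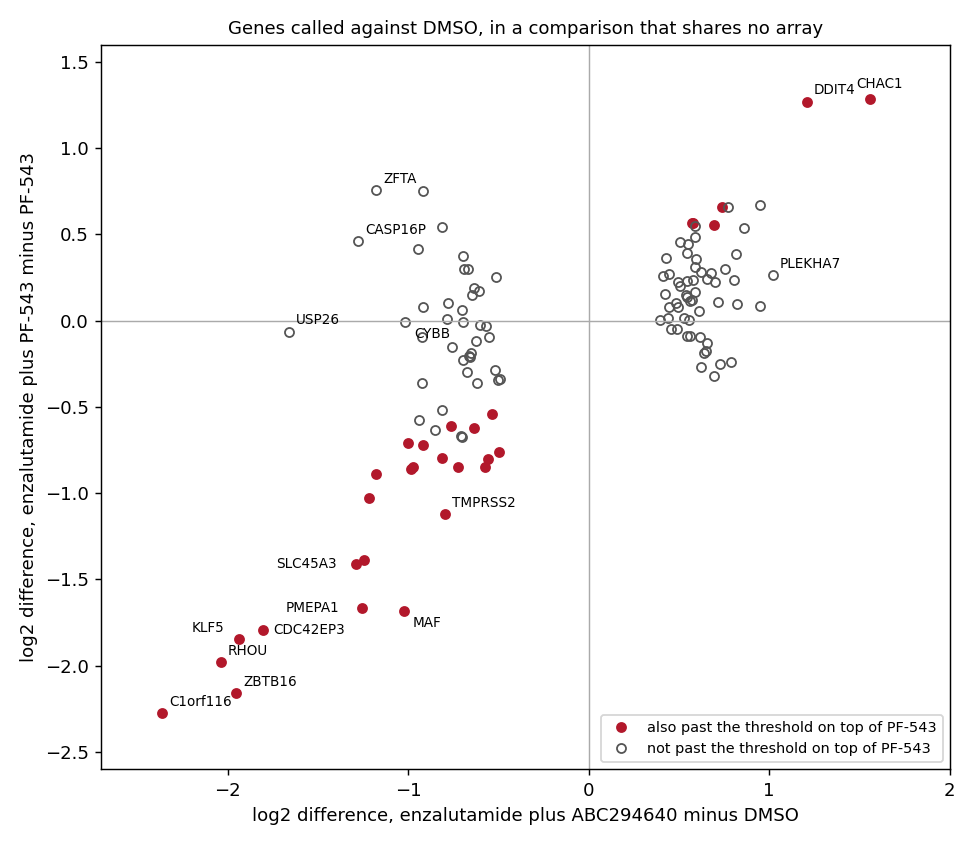
Each point is 1 of the 124 genes called against DMSO, with the log2 difference of the combination minus DMSO on the horizontal axis and of enzalutamide plus PF-543 minus PF-543, which shares no array with it, on the vertical axis. Filled points also passed the threshold on the vertical axis. C1orf116 (-2.36 and -2.27) and CHAC1 (1.56 and 1.28) lie at the 2 ends, and USP26 (-1.66 and -0.06) lies near 0 on the vertical axis.

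Among falls seen in both, CDC42EP3, an effector of the GTPase Cdc42, was at 6.86, 6.78 and 7.33 with the combination, against 8.84, 9.05 and 8.5 with DMSO (-1.81, adjusted p = 0.000367). Its difference was -2.02 against ABC294640 and -1.79 in enzalutamide plus PF-543 against PF-543. SEMA6D, a transmembrane semaphorin, was at 6.60, 6.64 and 6.24 with the combination, against 7.81, 7.61 and 7.79 with DMSO (-1.24, adjusted p = 0.000887). It fell also against ABC294640 (-1.19) and in enzalutamide plus PF-543 against PF-543 (-1.39). The coiled-coil gene CCDC141 differed by -1.22 and the zinc finger gene ZBTB10 by -1.18, and both also fell in the comparison with no shared array, with values of -1.03 for CCDC141 and -0.89 for ZBTB10. NFKBIA, the inhibitor of NF-kappaB, was the 1 of 15 NF-kappaB targets to fall (-0.72, adjusted p = 0.0118; -0.85 in enzalutamide plus PF-543 against PF-543). Of 16 feedback genes of the ERK pathway, ERRFI1 and LRIG1, which restrain EGF receptor signalling, fell, with differences of -0.76 for ERRFI1 (adjusted p = 0.0034) and -0.85 for LRIG1 (adjusted p = 0.00809), and the list's median was -0.18. In enzalutamide plus PF-543 against PF-543 ERRFI1 fell (-0.61, adjusted p = 0.0195), while LRIG1 had -0.63 and did not pass (adjusted p = 0.0615). Against ABC294640 they had -0.45 and -0.73, neither past the threshold. Of 10 glucocorticoid-induced genes, ZBTB16 and ERRFI1 fell. BAMBI, a decoy receptor of TGF-beta signalling, was at 13.57, 13.50 and 13.43 with the combination, against 12.89, 12.65 and 12.87 with DMSO (0.70, adjusted p = 0.00635), and had 0.59 against ABC294640 (adjusted p = 0.264) and 0.55 in enzalutamide plus PF-543 against PF-543 (adjusted p = 0.0352). PMEPA1 fell, so the 17 TGF-beta and BMP targets held 1 rise and 1 fall.

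A further set separated DMSO from every treated array. For 36 of the 60 rises all 12 treated arrays lay above all 3 DMSO arrays, and for 20 of the 64 falls all lay below. Of all 17687 genes, 359 lay above in this way and 252 below, 3.45% with a gap of either kind. These 611 genes lie among the 3401 whose combination and DMSO arrays did not overlap. All 124 called genes are in that set, so their higher share follows in part from how they were called. Of the 94 genes that passed neither against ABC294640 nor in enzalutamide plus PF-543 against PF-543, 33 rises and 18 falls had such a gap. USP26, a deubiquitinase gene of the X chromosome, was at 3.85, 3.46 and 3.67 with the combination, against 4.75, 5.71 and 5.51 with DMSO (-1.66, adjusted p = 0.00462). It was at 3.39 with ABC294640 and at 4.28 and 4.35 with enzalutamide, so each treated array was below each DMSO array. CYBB, a catalytic subunit of the phagocyte NADPH oxidase, showed the same order: 4.51, 4.81 and 5.36 with the combination and 4.41 with ABC294640, against 5.65, 5.99 and 6.09 with DMSO (-1.02, adjusted p = 0.0315). USP26 is among the dimmest 25% of genes, with means below 4.65, and CYBB lies above that cut. The dimmest 25% held 8 of the 64 falls and 1 of the 60 rises. What sets the DMSO arrays apart was not tested.

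Other leading genes behaved in the same way or were mixed. Among rises, KAZALD1 (0.79), TCP11L2 (0.81) and PAG1 (0.71), the last a membrane adaptor of Src family kinases, each had all 12 treated arrays above the DMSO arrays. Against ABC294640 their differences were 0.14, -0.04 and 0.02. The caspase pseudogene CASP16P differed by -1.28 against DMSO (adjusted p = 0.00194) by -0.63 against ABC294640 and by 0.46 in enzalutamide plus PF-543 against PF-543, neither of these past the threshold. ZFTA, a zinc finger gene known from ependymoma fusions, was at 13.13, 13.11 and 13.00 with the combination, against 14.38, 14.29 and 14.11 with DMSO (-1.18, adjusted p = 0.00655). Its value was -0.93 against ABC294640 (95% interval -1.43 to -0.43, adjusted p = 0.348) and 0.76 in the comparison with no shared array (adjusted p = 0.106). TXNIP, which binds thioredoxin and limits glucose uptake, had -0.92 (adjusted p = 0.0243), and CCNG2, an unusual cyclin of arrested cells, 0.59 (adjusted p = 0.0293), the 2 called members of 17 FOXO targets. Against ABC294640 TXNIP had -1.0 and CCNG2 0.48, and in enzalutamide plus PF-543 against PF-543 they had -0.36 and 0.55, none past the threshold.

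Rises outside the androgen and ATF4 lists included 1 gene at 2-fold. PLEKHA7, an adherens junction protein, was at 6.98, 6.76 and 6.75 with the combination, against 6.00, 5.64 and 5.79 with DMSO (1.02, 2.03-fold, adjusted p = 0.00825). It had 0.93 against ABC294640 and 0.26 in enzalutamide plus PF-543 against PF-543, neither past the threshold. CEP85L differed by 0.95 (adjusted p = 0.0475), the hyaluronidase-family gene HYAL3 by 0.82 (adjusted p = 0.0189) and the transporter gene SLCO5A1 by 0.81 (adjusted p = 0.0358). The clock repressor NR1D1 differed by 0.76 (adjusted p = 0.0488), with combination arrays at 9.16, 9.20 and 9.17 and DMSO arrays at 8.78, 7.95 and 8.53. PRKD1, a diacylglycerol-regulated kinase, was the 1 of 11 protein kinase C genes to rise (0.50, adjusted p = 0.0207). None of these 5 passed without DMSO. Against ABC294640 the values were 0.86 for CEP85L, 0.58 for HYAL3, 1.0 for SLCO5A1, 0.32 for NR1D1 and 0.46 for PRKD1. In enzalutamide plus PF-543 against PF-543 they were 0.09, 0.10, 0.39, 0.30 and 0.46 in the same order.

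The combination and enzalutamide differ by ABC294640. Of 17687 genes, 0 differed between the combination and enzalutamide alone (limma, smallest adjusted p = 0.459), while 1200 had an unadjusted p under 0.05 and 884 would by the threshold alone. A robust fit of the spread called 1 gene. C1orf116 differed by 0.19 (95% interval -0.07 to 0.45), RHOU by -0.23 (-0.52 to 0.06) and KLF5 by -0.39 (-0.80 to 0.02). CHAC1 had 0.37 (0.11 to 0.63, adjusted p = 0.612), with combination arrays at 12.33, 12.11 and 12.12 and enzalutamide arrays at 11.94 and 11.69, which do not overlap. DDIT4 had 0.01 (-0.30 to 0.33). The median interval over all genes reached 0.34 to each side.

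The genes nearest to the threshold in that comparison came from no common list. CST4, a salivary cystatin, was at 3.44, 3.68 and 3.48 with the combination, against 4.37 and 4.13 with enzalutamide (-0.72, adjusted p = 0.459). ZBTB14, a zinc finger gene, was at 9.43, 9.43 and 9.56 with the combination, against 8.87 and 8.94 with enzalutamide (0.57, the same adjusted p), and its DMSO arrays were at 9.56, 9.41 and 9.52. TAFA3, a secreted chemokine-like protein, was at 9.23, 9.02 and 8.72 with the combination, against 9.83 and 9.74 with enzalutamide (-0.80, the same adjusted p). TAFA3 also fell against DMSO (-0.79, adjusted p = 0.0175), where enzalutamide alone differed by 0.01 and ABC294640 alone by -0.05. PCK2 had 0.69 over enzalutamide (0.28 to 1.09, adjusted p = 0.522) and STARD5, a cholesterol-binding protein, 0.58 (adjusted p = 0.503).

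Side by side, with the 3 DMSO arrays shared, enzalutamide alone called 55 genes against DMSO (0.311%) and the single ABC294640 array 0. C1orf116 differed from DMSO by -2.36 with the combination, -2.55 with enzalutamide and 0.26 with ABC294640. ZBTB16 differed by -1.95, -2.32 and 0.18 and CHAC1 by 1.56, 1.19 and 0.10 in the same order. STARD5 differed by 0.73 with the combination (adjusted p = 0.0339), 0.14 with enzalutamide and 0.82 with ABC294640, of which only the value for the combination passed. The interaction, the effect of enzalutamide in the presence of ABC294640 minus its effect without, gave 0 genes past the threshold (limma, smallest adjusted p = 0.211; 1459 genes at an unadjusted p under 0.05). The smallest p-values there belonged to ZBTB14 (1.04), INSL5 (-1.30) and TLK1 (-1.29). It rests on 1 ABC294640 array, and its median 95% interval reached 0.55 to each side.

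**Figure D4:**
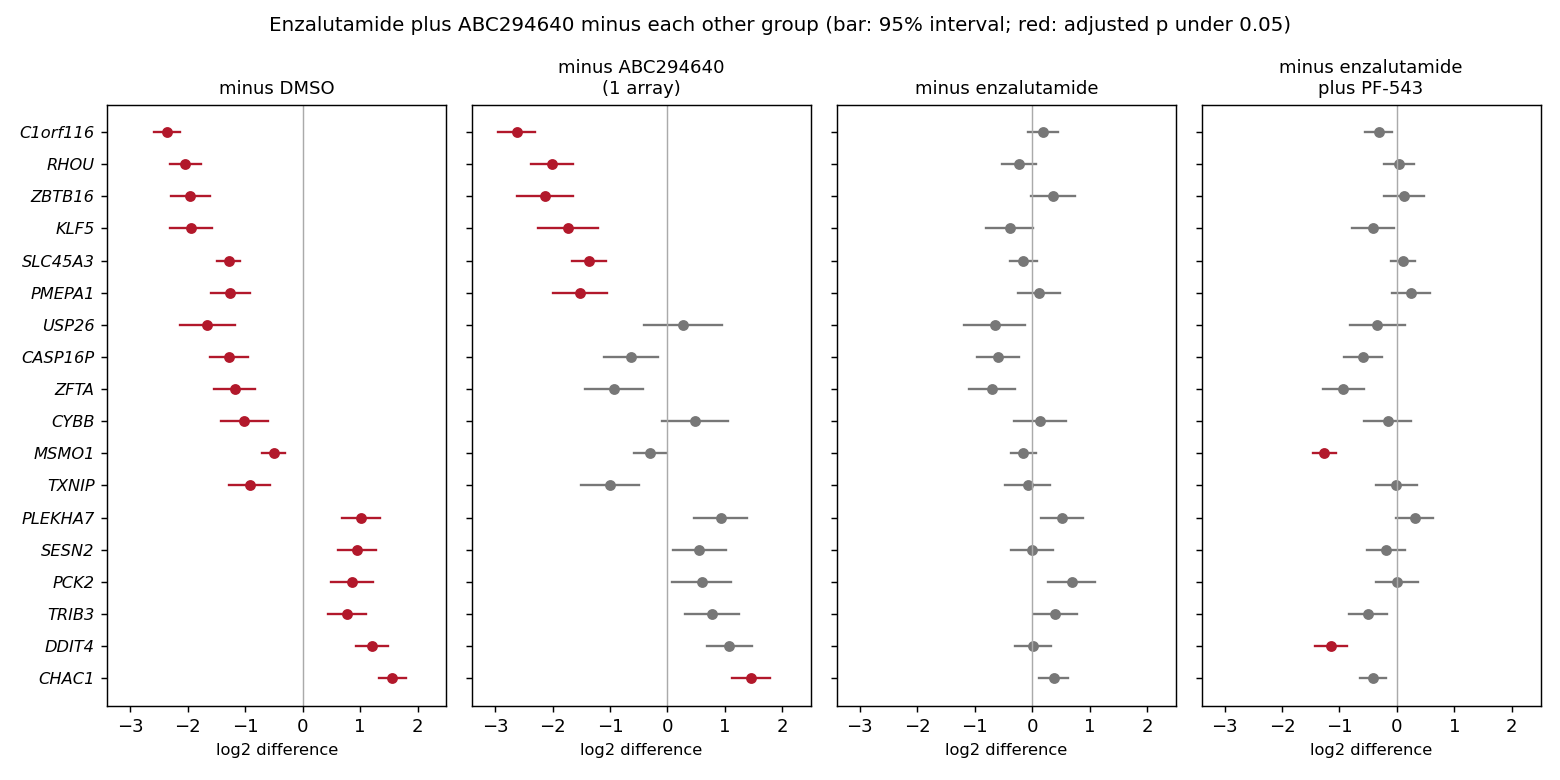
Log2 differences (points) with 95% intervals (bars) for named genes in the combination against DMSO, against the single ABC294640 array, against enzalutamide and against enzalutamide plus PF-543. Intervals of the androgen-induced genes lie below 0 against DMSO and ABC294640; against enzalutamide the interval of C1orf116 runs from -0.07 to 0.45.

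ABC294640 and PF-543, both at 15 µM with 10 µM enzalutamide for 6 h, form the 1 pair of compounds that could be compared at a matched dose and time. With ABC294640, 16 genes were lower and 1 higher than with PF-543 (0.0961% of those tested). Without 1 of these 6 arrays 3 to 8 genes passed, and in a fit on the 6 arrays alone 4 passed. Whether these were among the 17 was not counted. Genes of sterol synthesis led: 5 of 18 measured genes of the cholesterol pathway were lower with ABC294640, against 0.0905% of all genes, and the list's median was -0.47. INSIG1, which holds the sterol sensor in the endoplasmic reticulum, was at 12.89, 12.56 and 12.51 with enzalutamide plus ABC294640, against 13.96, 14.04 and 13.88 with enzalutamide plus PF-543 (-1.31, adjusted p = 0.000467). MSMO1, a sterol methyl oxidase, was at 13.78, 13.48 and 13.49 with enzalutamide plus ABC294640, against 14.76, 14.91 and 14.87 with enzalutamide plus PF-543 (-1.26, adjusted p = 9.36e-05). ACSS2, which makes acetyl-CoA from acetate, differed by -1.10 (adjusted p = 0.0358). IDI1, HMGCS1 and STARD4, which make or carry sterols or their precursors, differed by -0.86, -0.81 and -0.78 and complete the 5. FASN, the fatty acid synthase, had -0.70, so 2 of 12 genes of fatty acid synthesis were lower with ABC294640. The arrays of INSIG1 and MSMO1 did not overlap between these groups.

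Set against DMSO, with the same 3 DMSO arrays for both, the sterol genes read as follows. INSIG1 had -0.37 with enzalutamide plus ABC294640 (adjusted p = 0.147) and 0.93 with enzalutamide plus PF-543 (adjusted p = 0.00168). MSMO1 was the 1 of the 18 genes to fall with the ABC294640 combination (-0.50, adjusted p = 0.0315), and 16 of the 18 had a value below 0, with a median of -0.18. With enzalutamide plus PF-543, 5 of the 18 rose and 15 had a value above 0, with a median of 0.30, and MSMO1 rose by 0.76. With PF-543 alone 8 of the 18 rose, with a median of 0.59. Enzalutamide alone gave -0.35 for MSMO1 and did not pass.

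Some stress genes were also lower with enzalutamide plus ABC294640 than with enzalutamide plus PF-543. DDIT4 was at 13.02, 12.86 and 12.79 with enzalutamide plus ABC294640, against 13.93, 14.11 and 14.09 with enzalutamide plus PF-543 (-1.15, adjusted p = 0.00396). GDF15, a secreted stress cytokine, differed by -1.05 (adjusted p = 0.0377), CCNG2 by -0.73 (adjusted p = 0.0292) and ATF3 by -0.82 (adjusted p = 0.0358). DDIT4, GDF15 and ATF3 made 3 of the 39 ATF4 targets. Set against the shared DMSO arrays, DDIT4 had 1.21 with enzalutamide plus ABC294640 and 2.36 with enzalutamide plus PF-543. GDF15 had 0.45 and 1.49 and CCNG2 0.59 and 1.31 in the same order. With PF-543 alone DDIT4 had 1.09, GDF15 0.71 and CCNG2 0.77. The cell cycle inhibitor CDKN1A and TSC22D3, a member of both the androgen-induced and the glucocorticoid list, were also lower, with differences of -0.87 and -0.84. CHAC1 had -0.41 (95% interval -0.64 to -0.18, adjusted p = 0.396). The glucose transporter family gene SLC2A7 was the 1 gene higher with ABC294640, at 4.95, 5.02 and 4.95 with enzalutamide plus ABC294640, against 4.38, 4.44 and 4.48 with enzalutamide plus PF-543 (0.54, adjusted p = 0.0358), both low on the scale. For the androgen-induced genes the list's median was -0.02 between the compounds. RHOU differed by 0.03 (-0.23 to 0.30), ZBTB16 by 0.12 (-0.22 to 0.46) and C1orf116 by -0.32 (-0.55 to -0.09, adjusted p = 0.527).

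Genes of the lipid pathway that ABC294640 targets gave no call against DMSO. Of 31 measured genes of sphingolipid metabolism 0 passed, and the median was 0.04. SPHK1, sphingosine kinase 1, was at 7.91, 7.56 and 7.70 with the combination, against 8.05, 8.0 and 7.93 with DMSO (-0.27, adjusted p = 0.302). DEGS1, the desaturase that makes ceramide, was at 15.22, 15.17 and 15.50 with the combination, against 15.33, 15.25 and 15.18 with DMSO (0.04, adjusted p = 0.875). SGMS2, a sphingomyelin synthase, had 0.80 (adjusted p = 0.0839), with combination arrays at 7.51, 7.19 and 7.44 and DMSO arrays at 6.53, 6.91 and 6.29. Of 8 measured receptors and transporters of sphingosine 1-phosphate 0 passed, with a median of -0.14.

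Several further lists held no gene past the threshold. Among them were 12 genes of fatty acid synthesis (median 0.01), 21 NRF2 targets, 16 heat shock genes, 23 immediate early genes, 19 interferon-induced genes, 26 genes of G1/S and 22 of G2/M, 15 BCL2 family genes and 21 lysosomal genes. Of 11 genes of metallothioneins and the zinc exporter 0 passed, while 10 had a value above 0 and the median was 0.24. At 6 h and with 3 arrays a group, the median 95% interval against DMSO reached 0.31 to each side. After adjustment over all genes the smallest difference past the threshold was 0.40, so a list without calls does not show that its genes stayed level.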

How the data were processed

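RNA of C42B cells was measured on 15 Affymetrix whole-transcript arrays. The deposited values are log2 levels per probe set, made by the authors with RMA and Transcriptome Analysis Console 4.02 per the submitters' processing notes; no source used here gives the RMA variant or the annotation's version. Of 21448 probe sets, 17709 carried 1 symbol in the platform annotation, 0 several and 3739 none, and all 17709 matched a RefSeq gene. Where a gene had more than 1 probe set (20 genes), the brightest by its mean over the arrays stood for it. No column was left unused.

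Group means over the 15 arrays were fitted with limma 3.58.1 in R 4.3.3 (9 residual and 3.82 prior degrees of freedom), with Benjamini-Hochberg adjustment over all 17687 genes in each contrast and a threshold of 0.05. The single ABC294640 array is thereby assumed to vary like the other groups. Log2 differences are the combination minus the other group, and intervals are 95%. Lists are described by counts and medians, with no test of the list. Fits were tested on simulated data with 200 of 17687 genes changed: against DMSO 79% of differences of 1 and 26% of differences of 0.5 were recovered, with 3 false calls. The simulated noise was independent between genes and held no shift of the DMSO arrays, which in the real data stand apart. The false calls there therefore do not measure those of the real comparison. Tables were joined and figures drawn with Python 3.11.15, pandas 2.3.3 and matplotlib 3.10.9.

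The genes named are the 15 largest rises and falls against DMSO with no overlap between arrays, the 5 largest per direction (or the 3 smallest p) of the other contrasts, up to 4 called members of each list, and SPHK1, DEGS1 and MYC. Further list members and genes that differed between the compounds were named after their values were seen. The members, lists and tests were chosen with earlier results of these data known. Promoters came from RefSeq (GRCh38.p14), which held one for 14250 of the genes tested. Alternatives were other normalizations, a filter on dim genes, all probe sets, a robust spread, array weights, a fit on the compared groups only, the replicate number as a block, a 2-fold minimum and leaving out each array. The labels do not say whether equal replicate numbers mark pairs. Deviations from the group means correlated between same-numbered combination and DMSO arrays by 0.03, -0.02 and -0.00035. The other groups were not checked in this way, so pairing is not settled. The number of arrays limits the precision.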

Additional observations from a re-analysis of the deposited data

Results flagged for a closer look

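Outside the genes of the report, 27 of the 3739 probe sets with no gene symbol in the annotation used here passed the threshold between the combination and DMSO (limma, adjusted over these probe sets and the named ones together, adjusted p under 0.05), 6 higher and 21 lower with the combination. They drew attention because no comparison of the report uses them. Groups of 3 arrays or fewer were not tested for outlying arrays.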

How the results depend on the processing

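For the combination against DMSO, the 124 genes (60 higher, 64 lower) became 120 with quantile normalization, 45 higher and 71 lower with cyclic loess, 121 with equal medians and 141 with all probe sets. Without the dimmest 25% of genes there were 210, of which 114 higher. A robust spread with a trend gave 599 (360 higher, 239 lower), with 13 ATF4 targets higher. A fit on these 6 arrays gave 23 (3 higher, 20 lower), with 7 androgen-induced genes lower and 2 ATF4 targets higher. The replicate block gave 74 (32 higher, 42 lower), and the labels do not say whether the numbers mark pairs. A 2-fold minimum left 19 (3 higher, 16 lower), with 7 androgen-induced genes and 2 ATF4 targets. The ABC294640 array in place of DMSO left 1 higher, 13 lower and 1 ATF4 target. Leaving out 1 array gave 49 to 77 genes, 13 to 32 higher and 34 to 48 lower, with 9 to 11 androgen-induced genes and 4 to 6 ATF4 targets.

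Against enzalutamide the 0 became 1 with the robust spread. Against ABC294640 the 14 became 38 with the robust spread and 8 to 9 without 1 array. Between the compounds the 17 became 28 with the robust spread, 4 with only these groups, 4 with the replicate block, 5 with a 2-fold minimum and 3 to 8 without 1 array. Against the single ABC294640 array, 15 of the 124 genes called against DMSO had the opposite sign, none past the threshold, among them USP26 (0.27), CYBB (0.48), TCP11L2 (-0.04) and STARD5 (-0.10). In enzalutamide plus PF-543 against PF-543, 28 of the 124 had the opposite sign, 12 rises and 16 falls, none past the threshold. Among them were ZFTA (0.76), CASP16P (0.46), KAZALD1 (-0.24) and STARD5 (-0.25). Under the alternatives of processing no named gene called against DMSO reversed. Over 45 named genes called against DMSO, 516 of 674 values under the alternatives kept direction and threshold, 158 kept direction only. The 2-fold minimum is not in this count. Of the 45 genes, 17 kept both under every alternative counted that measured them. The causes were not tested; fewer arrays and a stricter minimum leave fewer calls by construction.

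Each group holds 3 arrays or fewer, 1 of them for ABC294640 alone, and the DMSO arrays stand apart from all treated arrays, so what every treatment shares cannot be told apart from what set the DMSO arrays apart. Detection calls were not used here, so genes of low level such as USP26 and CYBB have no measured floor.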

Other observations

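Among the called genes in no list, chosen here after their values were seen, TNFAIP8, an inhibitor of apoptosis, was at 7.69, 7.79 and 7.68 with the combination, against 8.62, 8.67 and 8.62 with DMSO, a difference of -0.92 (limma, adjusted p = 0.0034), and of -0.72 in enzalutamide plus PF-543 against PF-543 (adjusted p = 0.0206). KLF7, a Krüppel-like factor as KLF5 is, differed by -0.57 against DMSO (adjusted p = 0.0207), -1.05 against ABC294640 and -0.85 in enzalutamide plus PF-543 against PF-543 (adjusted p = 0.00161). The nuclear receptor VDR, which binds vitamin D, rose by 0.55 (adjusted p = 0.0404) and the histone demethylase KDM6A by 0.55 (adjusted p = 0.0161). Without DMSO neither passed: VDR had 0.48 against ABC294640 and 0.39 in enzalutamide plus PF-543 against PF-543, and KDM6A 0.25 and 0.44. NCOA4, a ferritin receptor of autophagy, differed by 0.44 against DMSO (adjusted p = 0.0424) and by -0.09 against the single ABC294640 array. FGF9, a growth factor, differed by -0.92 against DMSO (adjusted p = 0.0368) and by 0.08 in enzalutamide plus PF-543 against PF-543.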
